A study of Mus musculus with 30 samples.

Results

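KLF4 and KLF5 are zinc-finger transcription factors of the Krüppel-like family, and the deposited lists of their binding sites in 3T3-L1 cells were compared interval by interval. A site listed under both factors with the same chromosome, start and end was called shared. Sites found in a single list were called KLF4-without-KLF5 sites and KLF5-without-KLF4 sites. On chromosomes 1 to 19 and X the KLF4 list held 5875 sites and the KLF5 list 17120, which gave 17918 KLF sites among the 34724 intervals listed for any of the 9 factors of the series. Of these KLF sites, 5077 were shared, 798 were KLF4-without-KLF5 sites and 12043 were KLF5-without-KLF4 sites.

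3T3-L1 is a line of mouse fibroblast-like preadipocytes that differentiate into adipocytes when given hormones. Cells past confluence had received dexamethasone (1 μM), isobutylmethylxanthine (0.5 mM), insulin (1 μg per ml) and fetal calf serum (10%), and both libraries came from cells harvested 4 h later, so no uninduced cells enter any comparison. Chromatin was crosslinked with 1% formaldehyde and precipitated with a commercial KLF4 antibody or with a KLF5 antibody that was a gift from another laboratory (chromatin immunoprecipitation with sequencing, ChIP-seq). The other 7 lists used here are those of the receptors VDR and RXR and of the bZIP proteins cJun, JunB, FOSL2, ATF2 and ATF7, each from induced cells at the same time. Every factor had 1 library.

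Krüppel-like factors bind GC-rich and CACCC-type elements through 3 zinc fingers at the C terminus, which are closely alike among family members. KLF4 is induced early in adipogenesis and acts on the gene of C/EBPβ, a bZIP factor of the first hours of the process. KLF5 acts further along the same cascade, where it supports expression of the adipogenic regulator PPARγ. The vitamin D receptor VDR binds DNA as a heterodimer with the retinoid X receptor RXR. cJun, JunB and FOSL2 are subunits of AP-1, and ATF2 and ATF7 are close relatives of each other that bind cyclic AMP response elements.

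The lists hold positions alone. They give no score, read number or control value, so library depth is unknown, and antibody and depth both bear on how long a list is. Every interval is 400 bp long and comes from 1 common set, so sharing means that the same interval was listed under both factors, not that 2 independently placed peaks met. With 1 library per factor, no test over replicates is possible. Shares are given with exact 95% intervals (Clopper-Pearson) for counting error alone, and the direction on each of 20 chromosomes is given as a measure of spread.

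KLF4 sites lay largely within the KLF5 list. KLF5 was listed at 86.4% of KLF4 sites (95% exact interval 85.5 to 87.3), where it was listed at 49.3% of all intervals. KLF4 was listed at 29.7% of KLF5 sites (29.0 to 30.3), against 16.9% of all intervals. The shared sites made up 14.6% of all intervals and 28.3% of the KLF sites, the KLF4-without-KLF5 sites 4.45% and the KLF5-without-KLF4 sites 67.2%. The KLF5 list was the longer one. When the first 5875 rows of the KLF5 list were taken, as many as the KLF4 list holds, 3170 sites were shared, which is 54.0% of each list. A list of this length covers 16.9% of all intervals. Shared intervals keep the same row order in both lists, and the KLF4 list was kept whole. KLF4 sites late in that order could therefore not be shared, by construction.

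The shared sites were set apart from both single-list classes by the number of other factors listed there. Shared sites carried a mean of 3.57 of the other 7 factors (95% interval 3.52 to 3.63, median 4). KLF4-without-KLF5 sites carried 1.41 (1.31 to 1.52, median 1) and KLF5-without-KLF4 sites 1.65 (1.62 to 1.68, median 1). At least 4 other factors were listed at 51.5% of shared sites, at 10.4% of KLF4-without-KLF5 sites and at 15.0% of KLF5-without-KLF4 sites. Intervals with neither KLF factor had a mean of 1.56 (1.55 to 1.58, median 1), between those of the single-list classes, and at least 4 factors at 4.65%. Each of these intervals has at least 1 of the 7 factors by construction. At the opposite end, none of the other 7 was listed at 353 shared sites (6.95%, 6.27 to 7.69), 298 KLF4-without-KLF5 sites (37.3%, 34.0 to 40.8) and 4103 KLF5-without-KLF4 sites (34.1%, 33.2 to 34.9). Over all intervals this share was 13.7%, but an interval without a KLF factor is in the common set only if another factor is listed there, so the value for all intervals is lowered by construction. All 7 other factors were listed at 504 shared sites (9.93%), 4 KLF4-without-KLF5 sites (0.50%) and 126 KLF5-without-KLF4 sites (1.05%). This compares with 1.87% of all intervals and 0.095% of intervals with neither KLF factor.

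The nuclear receptors showed the widest gap between shared and single-list sites. VDR was listed at 3794 shared sites, or 74.7% (73.5 to 75.9), against 34.0% of all intervals. It was listed at 32.8% of KLF4-without-KLF5 sites (29.6 to 36.2) and 33.9% of KLF5-without-KLF4 sites (33.1 to 34.8). The value for all intervals includes the shared sites, and at intervals with neither KLF factor VDR was listed at 21.7% (21.1 to 22.3), below all 3 classes. RXR was listed at 77.9% of shared sites (76.8 to 79.1), against 34.8% of all intervals. Here the single-list classes parted: RXR was listed at 26.9% of KLF4-without-KLF5 sites (23.9 to 30.2) and at 37.1% of KLF5-without-KLF4 sites (36.2 to 38.0). At least 1 of the receptors was listed at 83.9% of shared sites, 40.9% of KLF4-without-KLF5 sites and 46.3% of KLF5-without-KLF4 sites, against 46.0% of all intervals. At intervals with neither KLF factor, RXR was listed at 20.5% (19.9 to 21.1), again below all 3 classes, although each of these intervals has at least 1 of the 7 factors by construction.

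AP-1 subunits were also most frequent at shared sites. cJun was listed at 43.2% of them (41.8 to 44.6), against 13.4% of KLF4-without-KLF5 sites, 15.6% of KLF5-without-KLF4 sites and 17.8% of all intervals. JunB was listed at 56.5% (55.1 to 57.8), against 21.1%, 25.2% and 29.0% in the same order. FOSL2 was listed at 31.6% (30.3 to 32.9), against 11.8%, 12.9% and 18.1%. At intervals with neither KLF factor, cJun was listed at 11.9% (11.4 to 12.4), JunB at 23.9% (23.2 to 24.5) and FOSL2 at 18.0% (17.5 to 18.6). Against these intervals, cJun was more frequent and FOSL2 less frequent at KLF5-without-KLF4 sites beyond counting error. The bases are unlike, because each interval with neither KLF factor has at least 1 of the 7 factors by construction. None of the 7 was listed at 34.1% of KLF5-without-KLF4 sites, which lowers every factor's share there. Of the 12043 KLF5-without-KLF4 sites, 1558 were listed for FOSL2 and 4103 for none of the 7. With these 4103 sites left out, the FOSL2 share is above that of intervals with neither KLF factor. The lower FOSL2 value thus holds only on the unlike bases. At least 1 subunit was listed at 67.7% of shared sites (66.4 to 68.9), 29.2% of KLF4-without-KLF5 sites and 32.4% of KLF5-without-KLF4 sites, against 41.0% of all intervals.

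The ATF factors gave the smallest differences between shared and KLF5-without-KLF4 sites. ATF2 was listed at 42.2% of shared sites (40.9 to 43.6), at 19.8% of KLF4-without-KLF5 sites (17.1 to 22.7) and at 24.3% of KLF5-without-KLF4 sites (23.6 to 25.1), where all intervals gave 33.3%. ATF7 was listed at 31.0%, 15.3% and 15.5% of the 3 classes, against 21.2% of all intervals. At intervals with neither KLF factor, ATF2 was listed at 37.6% (36.8 to 38.3) and ATF7 at 22.7% (22.0 to 23.3), above both single-list classes. The bases are unlike here too, since an interval with neither KLF factor is in the common set only through another factor. None of the 7 was listed at 37.3% of KLF4-without-KLF5 sites and 34.1% of KLF5-without-KLF4 sites, which lowers every share there. Of the 798 and 12043 sites of these classes, 298 and 4103 had none of the 7. ATF7 was listed at 122 and 1867 sites, and ATF2 at 158 and 2931. With the sites without any of the 7 left out, the ATF7 shares are no longer below that of intervals with neither KLF factor. The ATF2 shares stay below the ATF2 share of those intervals, by little in the KLF5-without-KLF4 class. ATF2 or ATF7 was listed at 47.2%, 24.3% and 28.6% of the 3 classes in the same order, against 40.5% of all intervals. Any of the 5 bZIP factors was listed at 77.6%, 42.7% and 47.1%, against 66.2% of all intervals. For each of the 7 factors the share was higher at shared than at KLF5-without-KLF4 sites on 20 of 20 chromosomes.

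**Figure D1:**
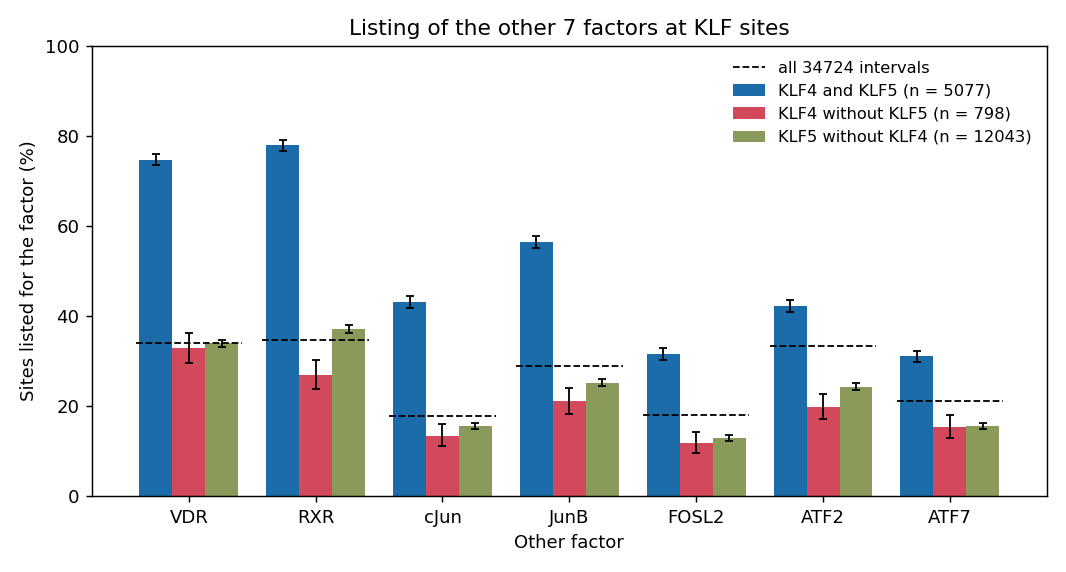
Percentage of KLF4-KLF5 shared sites, KLF4-without-KLF5 sites and KLF5-without-KLF4 sites (bars) at which each of the other 7 factors was listed, with exact 95% intervals for counting error; dashed lines give the percentage among all 34724 intervals. The shared class is the highest for every factor, and the 2 single-list classes are furthest apart for RXR (26.9% and 37.1%).

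Since a site with many factors is likely to carry any given factor, each factor was also compared among sites with equal numbers of the remaining 6. The difference between shared and KLF5-without-KLF4 sites then was 23.9 percentage points for VDR (40.8 without this adjustment) and 22.2 for RXR (40.8 without). It was 7.96 points for cJun (27.6 without), 6.38 for JunB (31.3 without) and 2.60 for ATF2 (17.9 without). For FOSL2 and ATF7 it came to 0.83 and 0.66 points, down from 18.6 and 15.5. The receptors kept more than the bZIP factors of their difference in this comparison. For a bZIP factor the remaining 6 include both receptors, and for a receptor only the other one, so the adjustment is not alike for both kinds. The ranking of receptors above bZIP factors did not hold for the AP-1 subunits at equal places in the KLF5 list, given below.

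The receptors were listed together at most shared sites. VDR and RXR stood together at 3491 shared sites, or 68.8%, where 22.8% of all intervals held both. VDR alone of the pair was listed at 5.97% and RXR alone at 9.16%, and neither receptor at 16.1% (15.1 to 17.2). Of the VDR sites in the shared class, 92.0% (91.1 to 92.9) were also listed for RXR, against 72.8% (71.4 to 74.2) in the KLF5-without-KLF4 class and 57.6% (51.4 to 63.7) in the KLF4-without-KLF5 class. At intervals with neither KLF factor, 35.5% of VDR sites were listed for RXR. Within the bZIP factors the shared class was also the highest. cJun was listed at 67.8% of shared JunB sites, 51.6% of those in the KLF5-without-KLF4 class and 46.4% of those in the KLF4-without-KLF5 class. ATF2 was listed at 83.9%, 72.5% and 70.5% of the ATF7 sites of these classes. The intervals of the single-list classes overlapped for cJun at JunB sites (49.8 to 53.4 and 38.7 to 54.3) and for ATF2 at ATF7 sites (70.4 to 74.5 and 61.6 to 78.4). In the opposite reading, ATF7 was listed at 61.7% of shared ATF2 sites, 46.2% of those in the KLF5-without-KLF4 class and 54.4% of those in the KLF4-without-KLF5 class.

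Seen from the KLF5 list, the presence of KLF4 rose with the number of other factors. KLF4 was listed at 7.92% of KLF5 sites without any of the other 7 (7.15 to 8.75), at 26.2% with 2, at 52.8% with 4 and at 80.0% with all 7 (76.7 to 83.1). From the KLF4 list, KLF5 was listed at 54.2% of sites with none of the other 7 (50.3 to 58.1), at 83.3% with 2, at 95.9% with 4 and at 99.2% with all 7 (98.0 to 99.8). Both series of 8 shares rose at every step.

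The share of KLF4 also varied with the kind of factor. Among KLF5 sites listed for both receptors and no bZIP factor, 33.7% (31.5 to 36.1, 1663 sites) were listed for KLF4. Among those listed for 1 receptor and no bZIP factor the share was 15.9% (14.0 to 17.9). KLF5 sites with 2 bZIP factors and no receptor had 15.0% (12.7 to 17.5), and even those with all 5 bZIP factors and no receptor had 39.7% (27.6 to 52.8, 63 sites). With both receptors added to all 5 bZIP factors the share was 80.0%, and with 1 receptor it was 40.2% (31.0 to 49.9, 112 sites). Moving from 1 receptor to both went with a higher share at every number of bZIP factors, whereas moving from none to 1 went with a smaller step, and at 5 bZIP factors with almost none. At equal places in the KLF5 list, given below, the step from 1 receptor to both was smaller. It was 8.33 points without bZIP factors (17.9 unadjusted) and 21.6 points with all 5 (39.8 unadjusted).

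**Figure D2:**
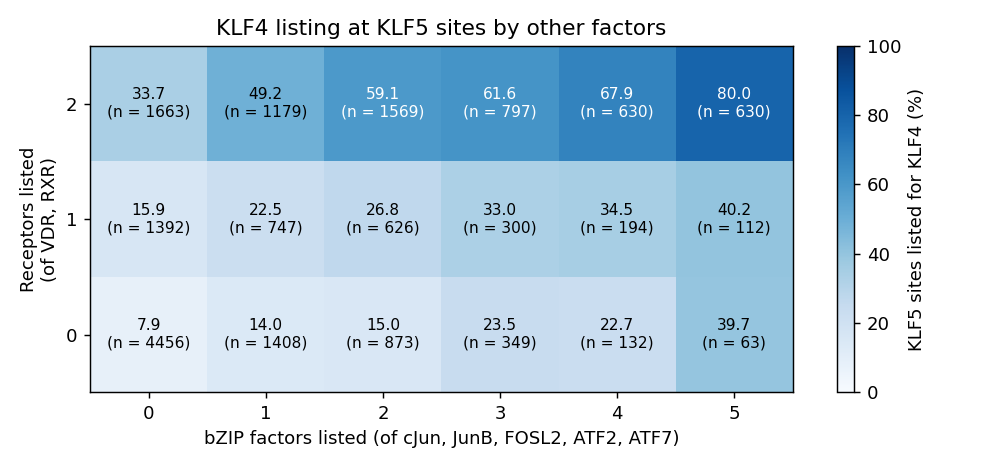
Percentage of KLF5 sites listed for KLF4 (colour and upper figure in each cell; number of KLF5 sites in parentheses) by the number of bZIP factors (horizontal axis, of 5) and receptors (vertical axis, of VDR and RXR) listed at the site. The row with both receptors runs from 33.7% to 80.0%, and the row with 1 receptor from 15.9% to 40.2%.

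Exact combinations showed the same pattern. Of the 128 possible combinations of the other 7 factors, 51 held at least 50 KLF5 sites. The 19 combinations with the highest KLF4 share all included both VDR and RXR, and the 2 others that included both stood at positions 22 (ATF7, VDR and RXR, 38.6%) and 25 (VDR and RXR alone, 33.7%). The most frequent combination at shared sites was cJun, JunB, VDR and RXR, which held 681 of them (13.4%). KLF4 was listed at 62.4% of the 1092 KLF5 sites with this combination (59.4 to 65.2). With 1 of the receptors missing, the share was 16.2% (11.9 to 21.3, 253 sites). With both missing it was 12.1% (7.56 to 18.1, 165 sites). The step from 1 receptor to both was 46.2 points and had this direction on 20 of 20 chromosomes, and at equal places in the KLF5 list it was 26.5 points. The step from no receptor to 1 was 4.08 points and had this direction on 10 of the 19 chromosomes with sites of both kinds. For ATF2 and ATF7 the share was 11% without a receptor (8.18 to 14.3, 428 sites) and 45.8% with both (38.0 to 53.7, 166 sites), higher on 19 of 19 chromosomes and by 33.7 points at equal places. The combination of AP-1 dimer partners with both receptors held a higher share than that of the ATF pair with both receptors, by 16.6 points and on 13 of 19 chromosomes.

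Place in the lists moved with all of these values. The rows of the lists are not sorted by position, and the sources used here do not state what sets their order. Each list was divided into deciles, 10 equal blocks of rows. The 5077 shared sites stood in the same order in both lists. In the KLF4 list, the mean number of other factors went from 4.89 in the first decile to 0.97 in the last, and in the KLF5 list from 4.05 to 0.41. Sharing went the same way. KLF5 was listed at 97.1% of the first decile of KLF4 sites (95.4 to 98.3) and at 52.9% of the last (48.8 to 57.0). KLF4 was listed at 69.2% of the first decile of KLF5 sites (66.9 to 71.3) and at 4.03% of the last (3.15 to 5.07). The median shared site stood 25% of the way down the KLF5 list, and the median KLF5-without-KLF4 site 60.9%. In the KLF4 list the medians were 45.1% for shared and 82.5% for KLF4-without-KLF5 sites.

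**Figure D3:**
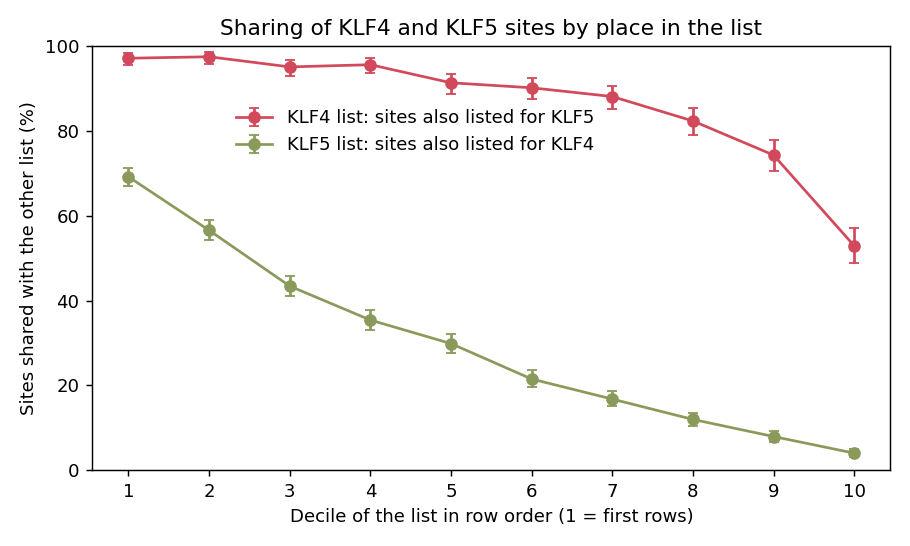
Percentage of sites shared with the other KLF list in each decile of the KLF4 list (587 or 588 rows each) and of the KLF5 list (1712 rows each), in the row order of the deposited lists, with exact 95% intervals. Sharing runs from 97.1% to 52.9% in the KLF4 list and from 69.2% to 4.03% in the KLF5 list.

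Within equal places in the KLF5 list, shared and KLF5-without-KLF4 sites still differed. Weighted over deciles of the list, shared sites had 1.06 more of the other factors, where the unadjusted difference was 1.92. Both receptors were listed more often by 23.6 points (44.0 unadjusted), and an AP-1 subunit by 23.2 points (35.3 unadjusted). For single factors the difference was 21.2 points for VDR, 21.6 for RXR, 17.2 for cJun, 20.2 for JunB and 11.8 for FOSL2. It was 8.03 points for ATF2 and 5.87 for ATF7. The AP-1 subunits thus kept more of their unadjusted differences than the receptors, and the ATF factors less. In the first decile, VDR and RXR stood together at 93.8% of 1184 shared sites and at 42% of 528 KLF5-without-KLF4 sites. In the last decile the values were 2.90% of 69 sites and 1.70% of 1643 sites. Over all KLF5 sites, both receptors were listed at 77.8% of the first decile and 1.75% of the last, which leaves little room for a late gap. In points, the receptor gap was wide in the early rows and small in the late rows.

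The same was seen when KLF5 sites were divided by their receptors. In the first decile, KLF4 was listed at 83.3% of KLF5 sites with both receptors (81.2 to 85.3), at 38.9% with 1 (30.9 to 47.4) and at 7.63% with neither (4.58 to 11.8). These 236 early KLF5 sites without a receptor had a lower KLF4 share than those without a receptor in the fifth decile, 20.1% (16.8 to 23.6). From the seventh decile on, the exact intervals of the 3 groups overlapped, which does not show their shares to be equal. In the seventh the shares were 20.7% with both receptors (16.6 to 25.4), 16.5% with 1 (13.2 to 20.2) and 15.4% with neither (13.1 to 17.9). The eighth decile kept this order, with 16.4% (11.8 to 22.0), 13.1% (10.1 to 16.6) and 10.6% (8.80 to 12.6). In the ninth they were 6% with both receptors (2.23 to 12.6), 9.24% with 1 (6.23 to 13.1) and 7.79% with neither (6.40 to 9.38).

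**Figure D4:**
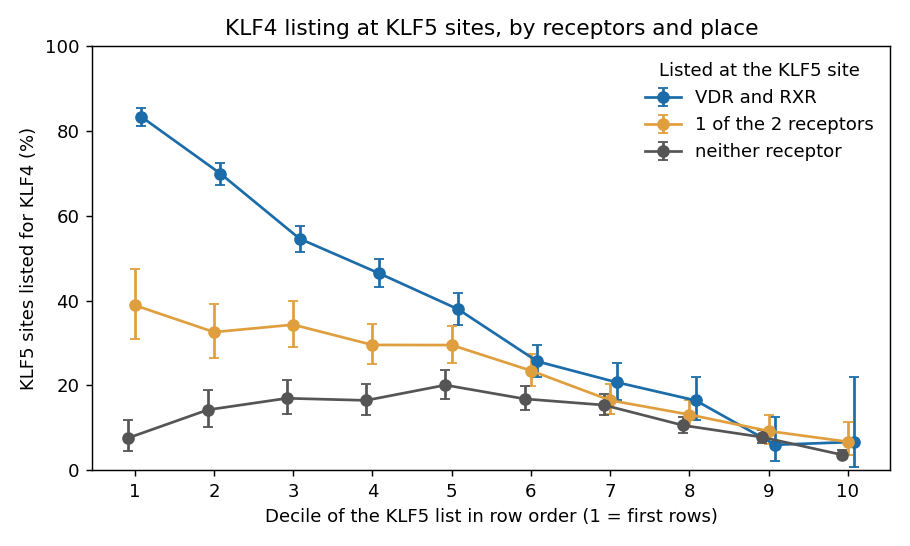
Percentage of KLF5 sites listed for KLF4 in each decile of the KLF5 list (row order, 1 is first), for sites listed for both VDR and RXR, for 1 of them or for neither, with exact 95% intervals. The groups range from 7.63% to 83.3% in the first decile and meet below 10% in the ninth.

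KLF4-without-KLF5 and KLF5-without-KLF4 sites had similar places relative to the shared sites. Because the shared sites keep 1 order in both lists, each single-list site was placed by the percentage of shared sites that stand before it. The median KLF4-without-KLF5 site came after 87.6% of the shared sites (quartiles 65.9 and 96.5), and the median KLF5-without-KLF4 site after 86.6% (quartiles 65.6 and 96.4). Among the first 10% of shared sites lay 1.63% of the one class and 1.66% of the other.

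The 2 single-list classes differed in few of the other factors, and RXR was foremost among them. RXR was listed less often at KLF4-without-KLF5 than at KLF5-without-KLF4 sites (26.9% and 37.1%), a difference of -10.2 points (95% interval of counting error -13.4 to -6.97) with this direction on 18 of 20 chromosomes. The difference was -8.64 points among sites with equal numbers of the remaining 6 factors and -9.58 points at equal places among the shared sites. For VDR it was -1.11 points (-4.48 to 2.25), negative on 13 of 20 chromosomes, and the interval held 0. The order of the receptors was turned round between the classes. At KLF4-without-KLF5 sites VDR exceeded RXR by 5.89 points, on 15 chromosomes with 3 the other way and 2 equal. At KLF5-without-KLF4 sites RXR exceeded VDR on 18 of 20 chromosomes (37.1% and 33.9%), and at shared sites on 16 of 20. VDR without RXR was listed at 111 KLF4-without-KLF5 sites (13.9%, 11.6 to 16.5) and at 9.23% of KLF5-without-KLF4 sites (8.71 to 9.76). RXR without VDR was listed at 64 (8.02%, 6.23 to 10.1) and at 12.4% (11.8 to 13.0).

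Among the bZIP factors, ATF2 and JunB were less frequent at KLF4-without-KLF5 sites. The difference was -4.54 points for ATF2 (-7.41 to -1.67) and -4.16 points for JunB (-7.09 to -1.22), each with 15 of 20 chromosomes in this direction. At equal numbers of the remaining factors it was -3.19 points for ATF2 and -1.0 for JunB. For cJun, FOSL2 and ATF7 the intervals of the difference held 0. None of these differences was tested over replicates, since there are none.

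Shared sites lay closer to other sites than single-list sites did. The nearest other interval of the common set was a median of 3945 bp from a shared site, 5442 bp from a KLF5-without-KLF4 site and 6954 bp from a KLF4-without-KLF5 site, measured between midpoints. Within 10 kb another interval was found for 70.0% (68.7 to 71.3), 63.3% (62.5 to 64.2) and 56.8% (53.2 to 60.2) of these classes. KLF5 sites with another KLF site within 1 kb were listed for KLF4 in 35.8% of cases (33.9 to 37.8), and those with none within 100 kb in 22.4% (20.3 to 24.6). For KLF4 sites, the share listed for KLF5 was 89.4% (87.3 to 91.3) and 74.5% (70.2 to 78.5) at these distances.

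Few intervals of the single-list classes overlapped an interval of the other list. All lists draw on 1 set of intervals with midpoints at least 201 bp apart, so overlap is limited by construction. Peaks slightly displaced between the 2 factors cannot be counted this way. The interval of a KLF4-without-KLF5 site overlapped that of a KLF5 site in 14 of 798 cases (1.75%), and a KLF5 site lay within 1 kb of 7.77% and within 10 kb of 33.2% (29.9 to 36.6). The median distance to the nearest KLF5 site was 23340 bp. A KLF4 site overlapped 120 of the 12043 KLF5-without-KLF4 sites (0.996%) and lay within 10 kb of 21.4% (20.7 to 22.2), at a median distance of 53019 bp. The KLF4 list is the shorter one, so the latter distances are larger by construction. The closest pair of a KLF4-without-KLF5 and a KLF5-without-KLF4 site was 322 bp apart, chr9:92455933-92456332 with cJun, JunB, VDR and RXR and chr9:92455611-92456010 with ATF2 and RXR (mm9).

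A KLF4-without-KLF5 site lay close to another of its class more often than shared or KLF5-without-KLF4 sites lay close to one. Another such site was found within 1 kb of 46 of the 798 (5.76%, 4.25 to 7.61). It was found within 1 kb of 0.51% of shared sites (0.33 to 0.75) and of 0.28% of KLF5-without-KLF4 sites (0.20 to 0.39), and all 3 values refer to the same 798 sites. Without chromosome 10, 4.47% of KLF4-without-KLF5 sites (3.10 to 6.22) had such a neighbour. Of the 798 sites, 19 (2.38%) overlapped another of their class. A site of their own class lay within 1 kb of 6.80% of shared and 8.48% of KLF5-without-KLF4 sites, which are larger classes. Chains of 3 or more KLF4-without-KLF5 sites, with steps of at most 10 kb, numbered 9 and held 34 sites. The longest had 7 sites at chr10:116772626-116776738, with 1 to 3 other factors at each. Shared sites formed 132 such chains with 455 sites (8.96% of the class), and KLF5-without-KLF4 sites 486 chains with 1648 sites (13.7%).

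The chromosomes differed in how far the lists were shared. KLF5 was listed at 72.4% of the 87 KLF4 sites on chromosome X (61.8 to 81.5) and at 92.0% of the 201 on chromosome 12 (87.4 to 95.4), with a median of 85.4% over 20 chromosomes. KLF4 was listed at 21.9% of the 288 KLF5 sites on chromosome X (17.2 to 27.1), at 22.0% on chromosome 7 (19.1 to 25.1) and at 37.0% on chromosome 19 (33.6 to 40.5), with a median of 28.9%. The exact interval missed the value of all chromosomes together on 6 of 20 for each of the 2 measures, and chromosomes 6, 7 and X did so for both. On chromosome 6 both values were high (91.2% and 35.7%), and on chromosomes 7 and X both were low. The listing of KLF4 over all intervals went the same way. It was 13.0% on chromosome X, 13.2% on 7, 20.2% on 6 and 21.1% on 19, against 16.9% over all chromosomes. For KLF5 it was 43.0% on chromosome X and 52.6% on 12, against 49.3%. Whether sharing differs between chromosomes beyond these shares was not tested. Chromosome X was also low in FOSL2 (7.16% of its 670 intervals), ATF2 (19%) and ATF7 (10.7%), while VDR (36.9%) and RXR (35.4%) stood near their shares of all intervals. Chromosome 10 held 2425 intervals, of which 38.6% were listed for KLF5, the lowest of all chromosomes, and 14.9% for KLF4. Its sharing, 83.4% of KLF4 and 32.2% of KLF5 sites, lay within counting error of that of all chromosomes.

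**Figure D5:**
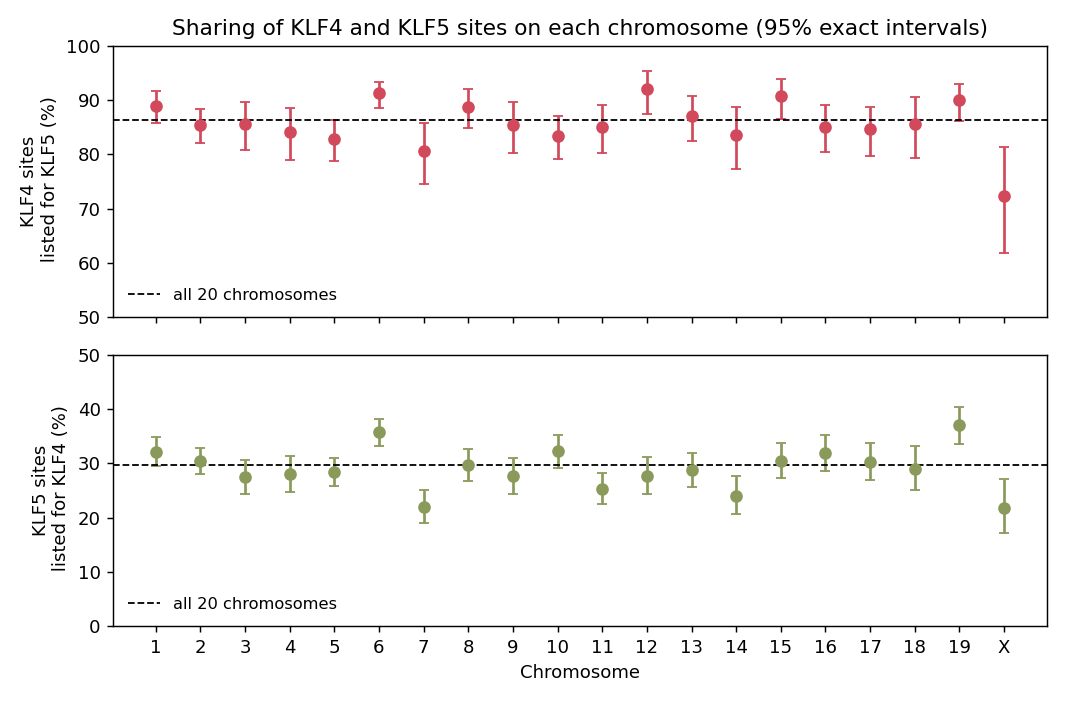
Percentage of KLF4 sites listed for KLF5 (upper panel, axis from 50%) and of KLF5 sites listed for KLF4 (lower panel) on each chromosome, with exact 95% intervals; the dashed line is the value over all 20 chromosomes. Chromosome X is the lowest in both panels (72.4% and 21.9%).

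The first rows of each class show single sites of these kinds. Coordinates are 1-based in mm9, and the annotation at these places was not analysed here. The first shared site, chr2:77813626-77814025, stood in row 1 of the KLF4 list and row 4 of the KLF5 list and was listed for all 7 other factors. It was followed by chr10:117540490-117540889, again with all 7, and chr10:107052548-107052947, with cJun, JunB, VDR and RXR. The first KLF4-without-KLF5 site, chr2:77789475-77789874, stood in row 2 of the KLF4 list, had none of the other 7 factors and lay on the same chromosome as the first shared site. The next, chr6:51121018-51121417 in row 11, also had none, and the next after it, chr13:104144822-104145221 in row 163, had JunB, VDR and RXR. Rows 1 to 3 of the KLF5 list were KLF5-without-KLF4 sites on chromosome 10, between positions 117106669 and 117158895. The first had cJun, FOSL2, ATF2 and ATF7, and the other two had no further factor.

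All 7 other factors were listed at 4 KLF4-without-KLF5 sites (0.50%) and 126 KLF5-without-KLF4 sites (1.05%). The share was 1.87% of all intervals, which include the 504 such shared sites, and 0.095% of intervals with neither KLF factor. For KLF4 without KLF5, 3 of the 4 were chr1:138581864-138582263, chr7:107123118-107123517 and chr19:46674991-46675390, in rows 969, 1872 and 2420 of the KLF4 list. For KLF5 without KLF4, the first in row order were chr10:107369464-107369863, chr6:136757583-136757982 and chr17:75674610-75675009, in rows 110, 336 and 471 of the KLF5 list. Shared sites with no further factor began later in the KLF5 list, with chr5:125955854-125956253 in row 412, chr2:25148359-25148758 in row 973 and chr10:38525869-38526268 in row 1409.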

How the data were processed

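The authors deposited 1 list per factor with chromosome, start and end as its 3 columns. The submitters' processing notes name Bowtie, HOMER, FastQC and the build mm9. The sources used here do not give versions, the peak threshold, how the common intervals were made or what the row order means. Depth is unknown. Intervals on chromosome Y (2, of which 1 was listed for KLF4) were left out. Classes were formed by identical interval, and the order of shared intervals was the same in 36 of 36 pairs of lists. Differences at equal numbers of factors or equal place are Mantel-Haenszel weighted differences of shares. Intervals for means and differences are normal approximations of counting error. Named sites are the first 3 in row order of each class, of each class with most other factors and of each class with none. Classes and comparisons were chosen with earlier results of these data known. Calculations were tested on simulated lists. Alternatives included shorter lists, overlap in place of identity, other distances and leaving out chromosome 10 or X. Of 30 labelled samples, 21 were not analysed here. Python 3.11.15, numpy 2.4.6, pandas 2.3.3, scipy 1.17.1 and matplotlib 3.10.9 were used.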

Additional observations from a re-analysis of the deposited data

How the results depend on the processing

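No paired analysis was possible because each factor had 1 library and no result comes from a test. Of 59 recomputed values of the main results, 31 stayed within counting error (for the median place, within 1 SD over chromosomes), among them all values without chromosome 10 or without chromosome X. None of the main differences between classes changed direction, and the main results that are plain shares have no direction to change. With the KLF5 list kept to its first 5875 rows, sharing was 54.0% of each list, the differences between shared and KLF5-without-KLF4 sites were 1.70 other factors, 39.5 points for both receptors and 13.4 points for no other factor (lower at shared sites), KLF4-without-KLF5 sites had 0.42 fewer other factors than KLF5-without-KLF4 sites (value -0.42), and 22.4% of the former and 22.3% of the latter had a site of the other list within 10 kb. With the first 50% of the rows of each list, KLF5 was listed at 95.3% of KLF4 sites and KLF4 at 32.7% of KLF5 sites. The differences were then 2.09 factors, 52.2 points for both receptors, 33.5 points for an AP-1 subunit, 20.4 points for no other factor and -0.35 factors between the single-list classes, and 25.4% and 14.4% had a site of the other list within 10 kb. These shortened lists hold fewer sites by construction. Where only the KLF5 list was cut, KLF4 sites late in the row order could not be shared and counted as KLF4-without-KLF5 sites. Counting any overlap of at least 1 bp as shared gave KLF4 at 30.4% of KLF5 sites. At equal numbers of the remaining factors the difference was 35.5 points for both receptors and 17.0 for an AP-1 subunit. Within deciles of the KLF5 list, chosen after seeing the data, the differences were 1.06 factors, 23.6 points for both receptors, 23.2 for an AP-1 subunit and 12.3 for no other factor. At a limit of 1 kb, 7.77% of KLF4-without-KLF5 and 4.81% of KLF5-without-KLF4 sites had a site of the other list, and at 100 kb 82.0% and 64.5%. Between the single-list classes, 4 small differences turned at equal numbers of the remaining factors: cJun to 0.26 points, FOSL2 to 1.01, ATF7 to 1.40 and VDR to 1.46. The RXR difference kept its direction in all 6 alternatives run (-13.3 to -7.52 points). Depth limits all shares by an unknown amount, and a stricter peak threshold could not be set without scores.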

Other observations

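KLF sites took different parts of the other lists. Shared sites made up 35.5% of the cJun list (34.3 to 36.7), 32.7% of the RXR list and 32.2% of the VDR list, but 18.6% of the ATF2 list (17.9 to 19.3) and 21.4% of the ATF7 list. The shared class is 14.6% of all intervals. KLF4-without-KLF5 sites held between 1.37% (ATF2) and 2.22% (VDR) of the 7 lists and are 2.30% of all intervals. Neither KLF factor was listed at 48.4% of all intervals. That value is lowered by construction. It includes the 13.7% of intervals with none of the 7 factors, which are all KLF sites and in none of these lists. The same intervals enter the values of 14.6% and 2.30%. In the lists themselves the share with neither KLF factor was 54.7% (ATF2), 51.7% (ATF7), 48.2% (FOSL2), 30.9% (VDR) and 28.5% (RXR). The 48.4% is therefore no like base for them. ATF2 sites illustrate the range: RXR was listed at 80.7% of ATF2 sites shared by both KLF factors (79.0 to 82.3), at 42.5% of those with KLF5 and not KLF4, at 25.9% of those with KLF4 and not KLF5 (19.3 to 33.5) and at 6.72% of those with neither.

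KLF5 sites with cJun as the sole other factor had the lowest KLF4 share of the 51 combinations, 7.14% (4 of 56 sites, 1.98 to 17.3), which its interval does not separate from the 7.92% of KLF5 sites with no other factor. FOSL2 as the sole other factor gave 19.6% (13.5 to 26.9, 148 sites). This pair was singled out after the values were seen.

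Stretches with 20 or more other intervals within 50 kb held 4.01% of KLF4-without-KLF5 sites (2.76 to 5.61), 2.80% of shared sites and 1.03% of KLF5-without-KLF4 sites (0.86 to 1.23), against 2.88% of all intervals. The exact interval of the KLF5-without-KLF4 class lay below that value, and those of the other two classes held it. Of intervals with neither KLF factor, 4.18% lay in such stretches (3.89 to 4.50). Of the 1001 intervals of any factor in such stretches, 918 lay on chromosome 10. Among the first 100 rows, 23 of the KLF4 list and 28 of the KLF5 list were on chromosome 10, which holds 6.16% of the whole KLF4 list and 5.47% of the whole KLF5 list.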
